A study of Caenorhabditis elegans with 2 samples.

Results

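The 6 Hox genes of *Caenorhabditis elegans* examined here were ceh-13, lin-39, mab-5, egl-5, php-3 and nob-1. They were taken by name from the Ensembl annotation of WBcel235, where all 6 were found among 19973 protein-coding genes. TRA-1 had been mapped by chromatin immunoprecipitation and sequencing in whole L4 larvae of strain DZ840, 48 h of age, grown from L1 larvae that had been starved after bleaching. All animals carried the tra-1 allele ez72 on chromosome III, made by CRISPR insertion at the gene itself, which adds a biotag, GFP, a TEV site and 3xflag to TRA-1, and the immunoprecipitation used an antibody to GFP. There was 1 group of 2 biological replicates with no untreated or mutant group, so no conditions were compared. Sex was not collected, and whole animals give 1 signal summed over all their cells, in which a site used strongly in few cells and one used weakly in many cannot be told apart.

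Hox genes encode homeodomain transcription factors that give cells their identity along the body from head to tail. In the worm they are spread over 1 loose cluster on chromosome III. ceh-13 acts most anteriorly and is the labial-type gene. lin-39 acts in the mid-body, where it keeps the vulval precursor cells unfused and guides the right Q neuroblast descendants. mab-5 acts behind it, in the left Q neuroblast lineage and in the sensory rays of the male tail, and egl-5 acts in the tail of the male and in the HSN motor neurons. php-3 and nob-1 are neighbouring posterior genes of the Abdominal-B type. TRA-1 is the GLI-family zinc-finger protein at the end of the somatic sex determination pathway, where it promotes female fates, and several Hox-dependent structures, among them the vulva and the male rays, differ between the sexes. lin-39 is among the genes described earlier as TRA-1 targets.

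The lists give each site a signal, which is the authors' own peak value, and a score from the irreproducible discovery rate (IDR), the estimated chance that a site of that rank would not repeat. A score of 830 stands for an IDR of 0.01, and 1000 is the highest score given. The conservative list of both replicates held 2703 sites that passed this score. They were taken from 78883 ranked sites, of which 2778 reached the score, so some sites that reached it are not in the conservative list. The highest signal was 3302.8 in the ranked list and 894.7 in the conservative list. Another thresholded list of the 2 replicates, called the second list here, had 3168. There were 1682 sites in the list made from replicate 1 by itself and 1355 in that made from replicate 2. Ranks and shares by signal were taken within a list, and the median signal over the conservative list was 105.3. Signals of the 2 replicates were also set side by side, as values and ratios, although each comes from its own list and the scales may differ. Depth is unknown for both libraries, since no read counts come with the lists.

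TRA-1 sites of the conservative list lay within 10 kb of 3 of the 6 Hox genes, lin-39, php-3 and nob-1. The same holds for 37.7% of all protein-coding genes and for 43.1% of the 2640 protein-coding genes of chromosome III. Only 3 sites were involved, because lin-39 had 2 and php-3 and nob-1 shared 1. No site of the conservative list lay within 10 kb of ceh-13, mab-5 or egl-5. From 2 kb upstream of the gene start to the gene end, lin-39 and nob-1 had a site, which is 2 of 6 genes, against 11.2% of all protein-coding genes. Neither count was tested, and both stand as descriptions.

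The sequences under these summits, and under the strongest summits that did not pass at mab-5 and egl-5, are shown because they carry the sites that the results turn on. They are the plus strand of the RefSeq genome of WBcel235, whose sequence ce11 shares. Sites in 5' UTRs are shown by 29 bases and the others by 101 bases, centred on the summit. Capitals mark the word CTCTCTC, the single searched word found within 50 bp of any of these summits.
Site at the cux-7 start, beyond the lin-39 end, chrIII:7520828-7520856: cacatggggacgaggaatgaatttggatt
Site in the lin-39 5' UTR, chrIII:7534771-7534799: ggggaaacgaggtgatataataaatgagg
Site upstream of nob-1, chrIII:12084867-12084967: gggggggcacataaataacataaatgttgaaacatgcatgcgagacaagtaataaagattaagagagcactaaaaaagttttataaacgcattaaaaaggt
Site upstream of mab-5, not passing, chrIII:7784338-7784438: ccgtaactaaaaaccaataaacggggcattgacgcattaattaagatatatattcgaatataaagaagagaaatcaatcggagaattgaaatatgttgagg
Site in the mab-5 intron, not passing, chrIII:7780708-7780808: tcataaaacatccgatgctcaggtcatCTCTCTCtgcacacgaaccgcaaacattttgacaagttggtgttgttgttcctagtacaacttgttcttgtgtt
Site upstream of egl-5, not passing, chrIII:7811056-7811156: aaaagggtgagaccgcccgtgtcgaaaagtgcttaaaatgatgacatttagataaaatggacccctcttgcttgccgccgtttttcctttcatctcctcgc

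The base composition of these stretches differed. Within 50 bp of the summit the share of G and C was 32.7% at the site upstream of nob-1, where 94.4% of the conservative sites had as high a share. It was 31.7% at the site upstream of mab-5, and 95.7% of the conservative sites were as high. Both sites of lin-39 had 45.5%, equal to the median of the conservative list. The site upstream of egl-5 had 46.5% and that in the mab-5 intron 41.6%.

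The Hox genes are unevenly spaced on chromosome III. lin-39 (WBGene00003024, chrIII:7528641-7536632, minus strand) and ceh-13 (WBGene00000437, chrIII:7555660-7558041, plus strand) are separated by 19027 bp. mab-5 (WBGene00003102, chrIII:7776835-7783454, minus strand) and egl-5 (WBGene00001174, chrIII:7814374-7817141, plus strand) form another pair, 30919 bp apart, and 218793 bp lie between ceh-13 and mab-5. php-3 (WBGene00004024, chrIII:12074218-12077556, minus strand) and nob-1 (WBGene00003779, chrIII:12077793-12084316, minus strand) lie 4257076 bp beyond egl-5 and only 236 bp apart, so most sites near one are also near the other. The genes span between 2382 bp, for ceh-13, and 7992 bp, for lin-39, against a median of 2027 bp over all protein-coding genes. A longer gene has a longer window, and this was not corrected for.

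**Figure D1:**
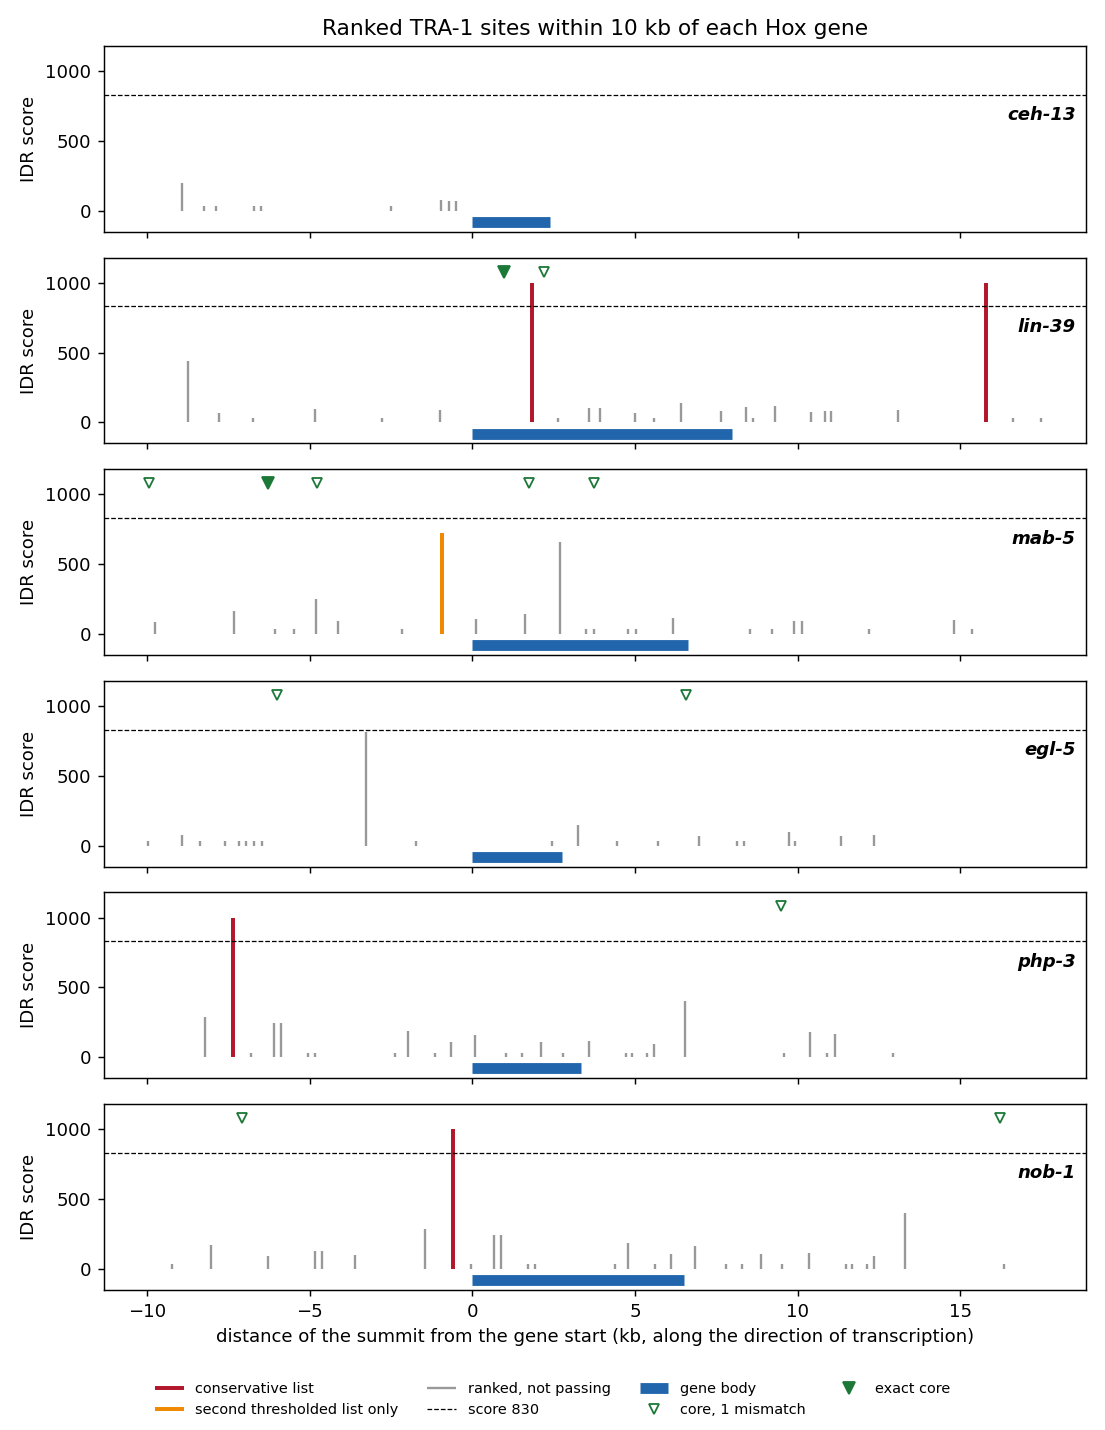
Ranked TRA-1 sites within 10 kb of each of the 6 Hox genes, 1 panel a gene; the horizontal axis is the distance of the summit from the gene start in kb along the direction of transcription, and the height of each line is the IDR score in the ranked list of both replicates. Sites of the conservative list (red) appear at lin-39, php-3 and nob-1, the site upstream of mab-5 that is in the second list alone is orange, the egl-5 site with a score of 816 ends just under the dashed line at 830, and open or filled triangles mark TRA-1 core sequences with 1 or no mismatch.

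The strongest site near a Hox gene lay beyond the 3' end of lin-39. Its summit at position 7520842 was 7799 bp past the end of lin-39 and 15790 bp from its start. The summit lay in the 5' UTR of cux-7, 3 bp downstream of the start of that gene, and 167 bp from the gene C07H6.2, so lin-39 was not the nearest gene. The signal was 183.1 in the conservative list, rank 344 of 2703 sites, and 12.7% of the sites were as high. Taken by replicate, the peak signal at this site was 125.8 in replicate 1, against 47.2 in replicate 2. The ratio of 2.67 was far from the median of 1.17 over the 2664 conservative sites with a peak in both replicates' ranked lists, and 0.5% of those sites had as high a ratio. The IDR was 1e-05 in replicate 1 alone and 0.0118 in replicate 2 alone, where the site fell just short of the threshold.

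Inside lin-39 a second site lay near the start of the shorter transcript. Its summit at 7534785 was 1847 bp downstream of the gene start and 20 bp downstream of the start of that transcript, in its 5' UTR, a place that is intronic in the longer transcript. The signal was 108, close to the median of the conservative list, and ranked 1283. Replicate 1 gave a peak signal of 59.3 and replicate 2 one of 40.3, a ratio of 1.47 that 24.4% of the sites reached. The IDR of the site was 0.00175 for both replicates together, 0.00799 in replicate 1 alone and 0.0598 in replicate 2 alone, so the site passed in the pooled lists and in replicate 1.

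The site near the posterior pair lay upstream of nob-1, which is needed for the development of the posterior embryo. Its summit at 12084917 was outside protein-coding genes, 601 bp upstream of the nob-1 start and 7361 bp upstream of that of php-3, with nob-1 lying between. The signal was 154.8, rank 553 of 2703, and 20.5% of the sites were as high. Replicate 1 gave a peak signal of 88 and replicate 2 one of 50.8, a ratio of 1.73 that 12.1% of the sites reached. This was the highest signal from 2 kb upstream to the gene end of any Hox gene.

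All 3 sites near Hox genes were also in the second list, with an IDR of 3.51e-05 at the cux-7 start, 0.00121 in the lin-39 5' UTR and 0.000173 upstream of nob-1. In the single replicates the 3 sites had the same pattern. All 3 were in the list of replicate 1, which held 54.6% of the conservative sites, and none was in that of replicate 2, which held 46.1%. Over the whole conservative list, 954 sites (35.3%) were in both replicates' lists, 522 (19.3%) in that of replicate 1 alone, 291 (10.8%) in that of replicate 2 alone and 936 (34.6%) in neither. Both replicates nevertheless had a ranked peak at each of the 3 sites, and the signal was higher in replicate 1 each time. Signals of replicate 1 were also higher at 69.8% of the conservative sites in general, so this direction is shared with most sites, and the ratio ran from 0.71 at the 5th percentile to 2.03 at the 95th percentile. With the list of replicate 1, 3 Hox genes had a site within 10 kb and 2 had one from 2 kb upstream to the gene end, against 26.8% and 7.6% of all protein-coding genes. With the list of replicate 2 no Hox gene had a site in either window, against 23.1% and 6.22% of all protein-coding genes.

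**Figure D2:**
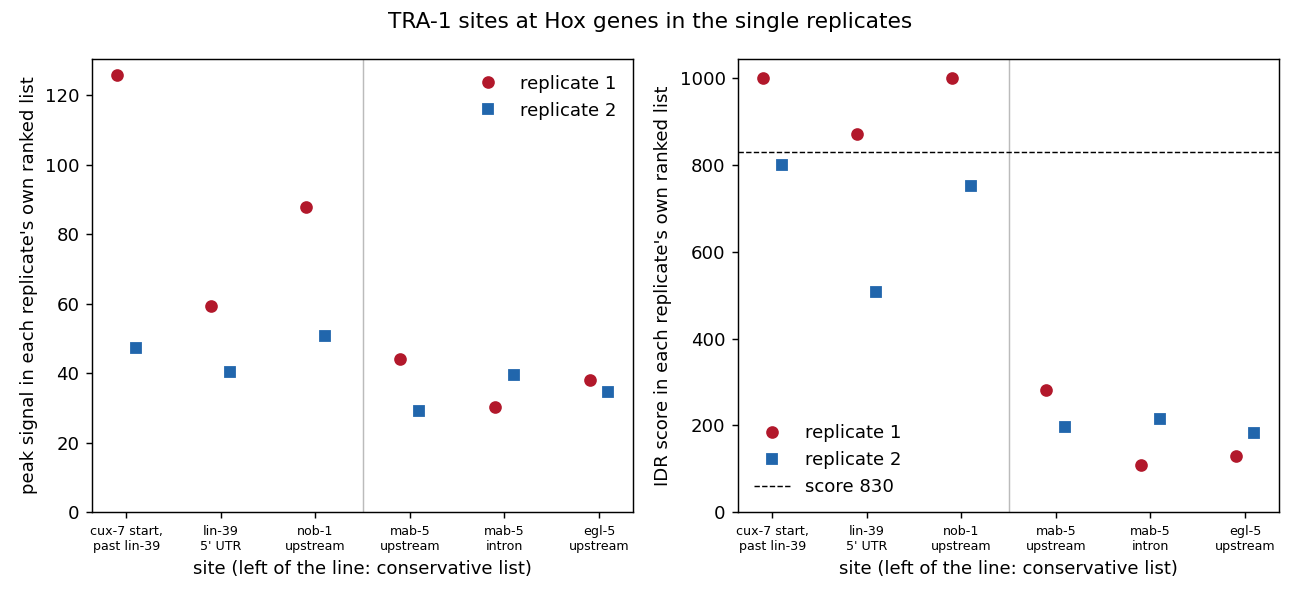
Peak signal (left) and IDR score (right) of 6 sites near Hox genes in the ranked list of replicate 1 (circles) and of replicate 2 (squares); the grey line separates the 3 sites of the conservative list from 3 sites that did not pass, and the dashed line is the score of 830. At the 3 conservative sites replicate 1 lay above replicate 2, with 125.8 against 47.2 at the cux-7 start, and replicate 1 alone passed the score; at the mab-5 intron replicate 1, at 30.2, lay below replicate 2, at 39.6.

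mab-5 and egl-5 had ranked sites of fairly high score that did not pass. Upstream of mab-5 a summit at 7784388, 934 bp from the gene start and outside protein-coding genes, had a signal of 77.6, a score of 722 and an IDR of 0.0182. The peak signal there was 44 in replicate 1 and 29.3 in replicate 2, with IDRs of 0.209 and 0.334 in the single lists. In the second list the same site had a score of 882 and an IDR of 0.00751, so it passed there. With that list 4 of the 6 Hox genes had a site within 10 kb and 3 had one from 2 kb upstream to the gene end, against 41.9% and 12.9% of all protein-coding genes.

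A second site lay in an intron of mab-5. Its summit at 7780758 was 2696 bp downstream of the gene start, with a signal of 82.4 and a score of 660. Replicate 1 had a peak signal of 30.2 and replicate 2 one of 39.6, and this was the single one of the 6 sites shown by replicate at which replicate 2 was higher. It passed in neither thresholded list of both replicates, and its score was 770 in the second ranked list.

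The site nearest to passing was that of egl-5, the gene that patterns the male tail. Its summit at 7811106 lay 3268 bp upstream of the gene start, outside protein-coding genes and 12 bp from the noncoding RNA gene C08C3.11. The signal was 69.5, the score 816 and the IDR 0.0108. Replicate 1 gave a peak signal of 38.1 there and replicate 2 one of 34.6, with IDRs of 0.487 and 0.362. No peak of the second ranked list overlapped it, so the ranked lists of both replicates differ at this site.

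ceh-13, the most anterior gene, had no site near the threshold. Its highest-scoring site, with the summit at 7546727, lay 8933 bp upstream of the gene start and 1572 bp from the microRNA gene cel-mir-231. It had a signal of 40.6, a score of 201 and an IDR of 0.327. Replicate 2 had a peak signal of 22 there and replicate 1 had no overlapping ranked peak. The nearest site of the conservative list was 12440 bp past the end of ceh-13, with a signal of 86.9. For mab-5 the nearest such site was 18068 bp past the gene end, with a signal of 165.7, and for egl-5 it was 37539 bp past the gene end, with a signal of 488.2.

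The highest-scoring sites that did not pass at the other Hox genes were weaker than those of mab-5 and egl-5. At lin-39 it was 8747 bp upstream of the gene start and 224 bp from cel-mir-231, with a signal of 55 and a score of 438. The peak signal at that site was 26.8 in replicate 1 and 29.6 in replicate 2. php-3 and nob-1 again shared theirs, in an intron of zyg-8, 3214 bp past the end of php-3. It had a signal of 57.6 and a score of 403, with a peak signal of 29.9 in replicate 1 and 24.6 in replicate 2.

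The strongest ranked site within 10 kb ordered the genes as lin-39, the posterior pair, egl-5, mab-5 and ceh-13. The place of lin-39 rests on the site at the cux-7 start, 7799 bp past the lin-39 end. That of php-3 rests on the site upstream of nob-1. The conservative site inside lin-39 had an IDR of 0.00175, which is higher than that of the nob-1 site. For lin-39, whose lowest IDR was 0.000181, 14.9% of all protein-coding genes had a site with as low an IDR within 10 kb. For php-3 and nob-1 the lowest IDR was 0.000255, which 16.4% of genes reached. For egl-5 the share was 38.8%, for mab-5 42.8% and for ceh-13 82.9%. By signal instead of IDR, mab-5 came before egl-5, at 36% against 46.2% of genes with as high a signal, and ceh-13 was again last, at 89.5%. The order of egl-5 and mab-5 thus changed with the measure in this list. In the second ranked list, where no peak overlapped the high site of egl-5, the lowest IDR of egl-5 was 0.331 and 89% of genes had one as low, which put it behind ceh-13, at 0.19 and 79.8%. lin-39, at 8.91%, and the posterior pair, at 15.4%, were again first there, before mab-5, at 40.1%.

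In the replicates alone the same genes led, lin-39 again through the site at the cux-7 start. In replicate 1, 5.97% of genes had as low an IDR as lin-39 and 12.2% had one as low as php-3 and nob-1, against 54% for mab-5, 61.8% for egl-5 and 76% for ceh-13. In replicate 2 the shares were 24.7% for lin-39, 26.4% for php-3 and nob-1, 65.8% for mab-5, 71.4% for egl-5 and 84.3% for ceh-13. mab-5 came before egl-5 in each replicate alone, which differs from their order by IDR in the ranked list behind the conservative list. By signal in replicate 1, ceh-13, at 40.1, came before egl-5, at 38.1, so the place of ceh-13 also depended on the measure. By signal in replicate 2, php-3 and nob-1, at 50.8, came before lin-39, at 47.2, so the first place depended on the measure there.

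**Figure D3:**
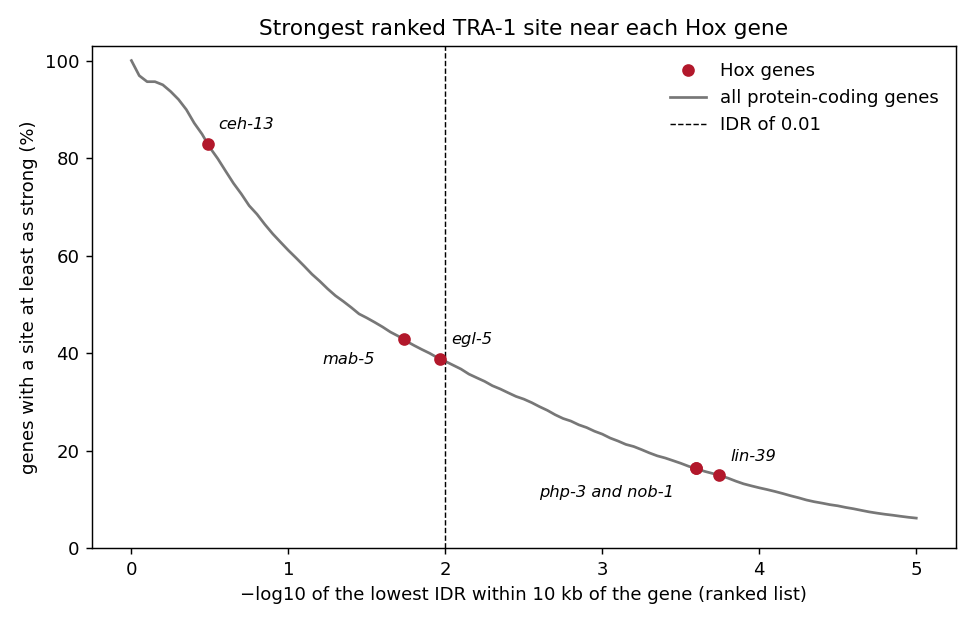
For every value of −log10 IDR (horizontal axis), the grey line gives the percentage of all protein-coding genes with a ranked site at least that strong within 10 kb, and the red points are the Hox genes. lin-39 lies where 14.9% of genes have as strong a site, php-3 and nob-1 share a point at 16.4%, egl-5 (38.8%) and mab-5 (42.8%) lie just left of the dashed line at an IDR of 0.01, and ceh-13 lies at 82.9%. The point of lin-39 is the site at the cux-7 start, and that of php-3 and nob-1 is the site upstream of nob-1.

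The 110 distinct ranked sites within 10 kb of a Hox gene were mostly of low score, as were ranked sites in general: of all those outside the conservative list, 65.7% scored at most 100. ceh-13 had 9, all outside protein-coding genes, their signals ran from 17.3 to 40.6, and 8 scored at most 100. lin-39 had 22 ranked sites that did not pass, with a median signal of 23.6, and 16 of them scored at most 100. mab-5 had 23 with a median of 26.4, and 15 scored at most 100. egl-5 had 21 with a median of 19.2, and 19 scored at most 100. php-3 had 26 with a median of 33.6 and nob-1 had 28 with a median of 32.8, and at each of them 15 scored at most 100. Introns of any gene, those of zyg-8 and of the other neighbour included, held 17 and 14 of the ranked sites of php-3 and nob-1. The 14 were all among the 17, and the share of intronic sites over all ranked sites was not counted. The density of ranked sites ran from 0.402 per kb at ceh-13 to 1.157 per kb at php-3, around the median of 0.832 per kb over all protein-coding genes. A ranked peak was present in both replicates at 1 of the 9 sites of ceh-13, 9 of the 24 of lin-39, 6 of the 23 of mab-5 and 3 of the 21 of egl-5. The numbers were 10 of 27 at php-3 and 11 of 29 at nob-1, and over all ranked sites the share was 34.4%.

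The TRA-1 core, TGGGTGGTC, was searched on both strands with at most 1 mismatch. It lay within 50 bp of the summit at 58 of the 2703 conservative sites (2.15%), and exactly at 8 (0.3%). None of the 3 conservative sites near Hox genes, and none of the sites shown for mab-5 and egl-5, held it within 50 bp of the summit or anywhere in the peak. Exact copies were nevertheless present in the windows of lin-39 and mab-5, outside every ranked peak. They are shown here, on the strand that reads as the core, because they place the known TRA-1 word beside the measured sites. Capitals mark the core.
Core in lin-39, plus strand, chrIII:7535642-7535690: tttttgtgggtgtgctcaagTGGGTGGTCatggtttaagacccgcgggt
Core upstream of mab-5, minus strand, chrIII:7789708-7789756: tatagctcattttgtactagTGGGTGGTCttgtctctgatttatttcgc

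The exact core in lin-39 lay 966 bp downstream of the gene start, in the intron before the shorter transcript begins and 861 bp upstream of the start of that transcript. The nearest ranked summit was that of the conservative site, 881 bp away. The exact core upstream of mab-5 lay 6278 bp from the gene start, outside protein-coding genes, and 203 bp from a ranked summit with a score of 33. Exact cores are uncommon in the genome, at 4.16 per Mb, and 8.1% of protein-coding genes had one within 10 kb. With at most 1 mismatch 84.5% of genes had one, so that such copies mark no gene apart.

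With 1 mismatch or none, the windows held 2 cores at lin-39, 5 at mab-5, 2 at egl-5, 1 at php-3 and 2 at nob-1, of which nob-1 and php-3 shared 1, and none at ceh-13. Over the genome such cores numbered 92.3 per Mb, and the windows were 22382 to 27992 bp long. mab-5 had 3 of its cores inside ranked peaks. They lay 43, 111 and 25 bp from summits with scores of 251, 141 and 33, all of them well under 830. The core shared by php-3 and nob-1 also lay inside a ranked peak, with a score of 33, so this was not particular to mab-5. The share of all such cores in the genome that lie inside ranked peaks was not counted. The core of lin-39 with 1 mismatch lay in a coding exon, 354 bp from the conservative summit. A match to these letters is a description of the sequence and not a binding site.

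Other words were searched in the same way. The GATA word TGATAAG lay within 50 bp of 9.29% of conservative summits, the word CTCTCTC of 8.44% and TGATNNAT, the word bound by Hox proteins with their PBC partners, of 6.22%. Both TGATAAG and TGATNNAT begin with TGAT, and no stretch of 1 strand can match both from the same first base. None of the 3 conservative sites near Hox genes had any of these words within 50 bp of the summit. Over whole peaks, 19.8% of the conservative sites held TGATAAG, 18.5% held CTCTCTC, 19.8% held TGATNNAT and 4.59% held the core with at most 1 mismatch. The peak in the lin-39 5' UTR held 1 TGATAAG and 1 TGATNNAT. The site in the mab-5 intron held 1 CTCTCTC and 1 TGATNNAT, and the site upstream of mab-5 held 2 CTCTCTC. The highest-scoring site of ceh-13, which did not pass, held 3 TGATNNAT and 1 CTCTCTC.

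The genes most like nob-1 were found from the signals of the 2 replicates. Over 1662 sites, the smallest distances in log2 signal were those of let-607, at 0.032, xtr-2, at 0.05, and ZK563.2, at 0.069. The peak signals in replicate 1 were 87 at let-607, 91.1 at xtr-2 and 86.8 at ZK563.2, against 88 at nob-1. In replicate 2 they were 51.8, 50.6 and 48.6 in the same order of genes, against 50.8 at nob-1. The sites lay in introns of let-607 and ZK563.2 and outside protein-coding genes 969 bp from the xtr-2 start. This likeness rests on 2 values a site.

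Genes that work with Hox proteins had sites as well. Of 5 Hox cofactors, 3 had a site of the conservative list from 2 kb upstream to the gene end (60%), against 11.2% of all protein-coding genes. The PBC-type homeodomain gene ceh-60 had 3 sites, the strongest in an intron 7154 bp from the gene start with a signal of 169.8, and peak signals of 103.4 in replicate 1 and 63.3 in replicate 2. The Meis-related gene psa-3 had 1 site, in an intron 867 bp from its start, with a signal of 134.5 and peak signals of 74.5 and 61 in replicates 1 and 2. unc-62, the Homothorax and Meis ortholog, had 2, the stronger in a 5' UTR with a signal of 92.8, peak signals of 61.2 and 34.5 and a place in the list of replicate 1 alone. The PBC genes ceh-20 and ceh-40 had none in this window, although all 5 cofactors had a site within 10 kb, against 37.7% of all protein-coding genes. Gene length was not corrected for here either. The list of cofactors was chosen with earlier results of these data known, and neither count was tested.

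Of 16 regulators of Hox gene expression, 6 had a site in the same window (37.5%), against the same 11.2% of all genes. This list too was chosen with earlier results of these data known. The count was not tested, and gene length was not corrected for. egl-27, a relative of the MTA proteins of nucleosome remodelling complexes, had 7 sites, the strongest in an intron 7858 bp from its start with a signal of 380.5. Its peak signals were 235.9 in replicate 1 and 131.3 in replicate 2. ash-2, a subunit of trithorax-type histone methyltransferase complexes, had 1 site with a signal of 154.3. It lay 490 bp downstream of the ash-2 start, at a place held by no protein-coding transcript. sor-3, which helps keep Hox genes silent outside their domains, had 1 with a signal of 151.3, 301 bp upstream of its start. Both genes' sites were in the lists of both replicates.

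The remaining regulators with a site were less well shared by the replicates. lin-59, of the trithorax group, had a site 467 bp upstream of its start with a signal of 118.2, in the list of replicate 2 alone. pop-1, the TCF factor of Wnt signalling, had one 1446 bp upstream with a signal of 89.6, and the beta-catenin gene bar-1 had one 484 bp upstream with a signal of 77.5, both in neither replicate's list. The other 10 regulators, among them the Polycomb-group genes mes-2, mes-3 and mes-6, the repressor gene sop-2 and the caudal-type gene pal-1, had none in this window. Within 10 kb, 8 of the 16 regulators had a site, against 37.7% of all protein-coding genes. Of 7 targets of Hox factors, egl-18, elt-6, lin-32, hlh-8, mig-13, egl-1 and eff-1, none had a site in the window, against 11.2% of all protein-coding genes. Within 10 kb 2 of the 7 targets had a site, against 37.7% of all protein-coding genes. They were lin-32, a proneural gene, with 1 site and mig-13, which guides the Q neuroblast descendants, with 3. Neither count of targets was tested.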

How the data were processed

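TRA-1 ChIP-seq peak lists on ce11 were used from 2 biological replicates of 1 group. Per the labels, chromatin was fragmented by sonication and precipitated with anti-GFP. Per the descriptions deposited with the files, each list was made from aligned reads of the replicates and a control, and the thresholded lists also drew on a further bed file. The sources used here name no aligner or peak caller, and do not say how an IDR was had from 1 replicate. The ranked lists hold 8 further columns of signal, for the paired peaks behind each site, which carry no replicate number and were not used.

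The deposited score of a site is a whole number that rises as IDR falls. The deposited signal is the authors' own peak value, on a scale that the sources used here do not give. The deposited −log10 IDR values are capped at 5, an IDR of 1e-05. The score reaches its cap of 1000 at a higher IDR than 0.001, so IDRs were taken from the −log10 column. Depth is unknown, so no interval could be given, and with 1 group and pooled lists no test was made. A replicate's value at a site is that of the strongest overlapping peak (1 bp or more) of its own ranked list, and signals of different lists may differ in scale.

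Summits were placed against Ensembl release 115 of WBcel235, which shares its sequence with ce11, with 1-based coordinates. All peaks lay within the chromosomes. A gene had a site when a summit lay within 10 kb of its body or, in the narrower window, from 2 kb upstream of its start to its end. Gene annotation classes were read from protein-coding transcripts.

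The Hox genes, the lists of cofactors, regulators and targets, and the motifs were chosen with earlier results of these data known. The text names every site of the conservative list within 10 kb of a Hox gene and the highest-scoring ranked site that did not pass at each Hox gene. The mab-5 intron site, the second highest in score there, was added after its values were seen. Named too are the 3 genes nearest to nob-1 in log2 signal of both replicates, nob-1 having the highest signal in the narrower window, and up to 6 genes with a site from each list.

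The counting of sites near genes, the overlaps and the motif search were tested on simulated data and recovered all planted items. Python 3.11.15, numpy 2.4.6, pandas 2.3.3 and matplotlib 3.10.9 were used. The alternatives tried were the second thresholded list, a stricter IDR, each replicate alone, other windows, whole peaks in place of summits, the nearest start only, other mismatches and windows for the core, and other overlaps.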

Additional observations from a re-analysis of the deposited data

How the results depend on the processing

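Of 48 alternative values, 37 lay within 1.5 times the main value and 11 moved further, 2 of them upward. These values include counts over all protein-coding genes, and counts of 0 that stayed 0 were taken as within 1.5 times. The total is thus no measure of how stable the Hox counts alone were. The number of Hox genes with a site within 10 kb ranged from 0 to 3 when each replicate was left out, and so did the number of sites. Without replicate 1 both were 0, and without replicate 2 both were 3. From 2 kb upstream to the gene end the number of genes ranged from 0, without replicate 1, to 2, without replicate 2. A window of 20 kb gave 5 Hox genes, all but egl-5, and 5 sites, against 56% of all protein-coding genes. At an IDR of at most 0.001, which kept 1321 sites, the site in the lin-39 5' UTR was lost, so that 1 gene, nob-1, had a site from 2 kb upstream to its end, against 6.12% of all protein-coding genes. Within 10 kb 3 Hox genes still had a site at that IDR, against 22.8% of all. The threshold of 0.001 had been planned from the score, which is capped above it. Reading it from the −log10 column was chosen after seeing the data. The number of cofactor, regulator and target genes with a site was 9 of 28 (32.1%), against 11.2% of all protein-coding genes, which was not tested. Under the alternatives run it was 6 to 9 (21.4% to 32.1%), while the share of all protein-coding genes ran from 6.12% to 16.6%. None of the 3 conservative sites near Hox genes held the core or was in both replicates' lists under the alternatives run for these counts, which did not cover sites that did not pass. No paired analysis was possible because there was 1 group. The unknown depth limits what the absence of a site shows.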
